A study of Mus musculus with 50 samples.

Results

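The proteasome genes of mouse hippocampal microglia were followed across early-life stress, an acute inflammatory challenge and age. Members were taken by symbol: every gene whose symbol is Psma, Psmb, Psmc, Psmd, Psme, Psmf or Psmg followed by a digit, leaving out symbols that contain "-ps" (pseudogenes). Of 53700 genes in the count files, 56 matched and 5 of these were dropped, which left 51 members. They comprised 5 immunoproteasome genes (Psmb8, Psmb9, Psmb10, Psme1 and Psme2), 31 constitutive subunits and 15 associated genes. The constitutive subunits were 7 of the alpha ring, 7 of the beta ring, 6 ATPases and 11 non-ATPase subunits of the regulatory particle. The associated genes were assembly chaperones (Psmg1 to Psmg4, Psmd5, Psmd9 and Psmd10), other activators and an inhibitor (Psme3, Psme4 and Psmf1), subunits restricted to testis or thymus (Psma8 and Psmb11), and 3 genes that match the symbol rule without being subunits of their own (Psmc3ip, Psme3ip1 and Psme2b).

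RNA-seq had been made from microglia of male C57BL/6J mice, sorted from the hippocampus as CD11b+ cells with intermediate CD45, with 1 library per mouse and 50 mice in 6 groups. Early-life stress (ELS) was limited bedding and nesting material from postnatal day (P) 2 to P9, and control (CTR) litters had standard material. At P9 the pups had no injection, with 12 mice in P9-CTR and 13 in P9-ELS. At P200 the mice were killed 3 h after an intraperitoneal injection of PBS or of 1 mg/kg lipopolysaccharide (LPS, a bacterial wall component that activates innate immune cells), with 7 mice in P200-CTR-PBS, 7 in P200-CTR-LPS, 6 in P200-ELS-PBS and 5 in P200-ELS-LPS. Myelin was removed on a Percoll gradient from adult tissue only, so age, the injection and this step cannot be told apart in the comparison of P200 with P9.

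The proteasome is the barrel-shaped protease that degrades ubiquitin-tagged proteins. Its core consists of alpha and beta rings, the beta rings carry the cutting sites, and a cap of ATPase and non-ATPase subunits recognises, unfolds and feeds in the substrate. Interferons and other inflammatory signals are known to induce substitute catalytic subunits, Psmb8 for Psmb5, Psmb9 for Psmb6 and Psmb10 for Psmb7, which are built into newly assembled particles as the immunoproteasome and favour peptides that fit MHC class I. Psme1 and Psme2 encode the PA28 activator, a ring that docks on the core in place of the cap. Microglia, the resident macrophages of the brain, are known to carry immunoproteasome subunits.

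On GRCm39, Psmb9 lies at chr17:34400960-34406738 on the minus strand and Psmb8 at chr17:34416690-34420428 on the plus strand, in the MHC region, with the peptide transporter gene Tap1 between them. Psmb10 lies at chr8:106662362-106665077 (minus). Psme1 at chr14:55815190-55822034 (plus) and Psme2 at chr14:55824895-55829173 (minus) are close neighbours. The constitutive counterparts are dispersed, with Psmb5 at chr14:54850776-54855481 (minus), Psmb6 at chr11:70416183-70418684 (plus) and Psmb7 at chr2:38478044-38534099 (minus). Exons of Psmb9 share 364 bases with Tap1 on the other strand, those of Psmb8 share 117 with Gm20496, those of Psme1 share 388 with Emc9, those of Psme2 share 102 with Rnf31 and those of Psmb7 share 405 with Nek6. The strand setting of the counting is not given in the sources used here, and in these shared bases, reads of a member and its partner could therefore not be told apart.

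Promoters from RefSeq (300 bases, 250 before the start and 50 after; 43 of the 51 members had an entry) were searched on both strands for 3 sets of letters: GAAA, any 2 bases and GAAA again (interferon-stimulated response element), TTCNNNGAA (gamma-activated site) and TGACNNNGC or TGAGNNNGC (antioxidant response element, which NFE2L1 and NFE2L2 bind). The windows below, 30 bases each, are shown because they hold the matches of the immunoproteasome genes and of 2 of their constitutive counterparts, with the matched letters in capitals.
Psmb8: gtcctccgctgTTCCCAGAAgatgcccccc
Psme1: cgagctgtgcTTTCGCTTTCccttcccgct
Psmb5: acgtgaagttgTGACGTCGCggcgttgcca
Psmb6: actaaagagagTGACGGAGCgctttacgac
The Psmb8 window (chr17:34417061-34417090, plus strand) held the gamma-activated letters from 97 to 89 bases before the RefSeq start. All 30 of its bases lay in exon sequence of the canonical transcript that GENCODE gives. The Psme1 window (chr14:55815950-55815979, plus) held the interferon-stimulated letters on the opposite strand, within the 50 bases after the start. All 30 of its bases also lay in exon sequence of the GENCODE canonical transcript. The Psmb5 window (chr14:54855481-54855510, minus) and the Psmb6 window (chr11:70416163-70416192, plus) held antioxidant letters just before the start. Over all 32851 promoters of this length, 3.44% held the interferon-stimulated letters, 8.3% the gamma-activated letters and 27.8% the antioxidant letters. Of 27 constitutive promoters, 13 (48.1%) held the antioxidant letters, as did 5 of 14 associated promoters, and of 6 immunoproteasome promoters (Psme2 has more than 1 entry) none did. The interferon-stimulated letters were in 1 of the 6 immunoproteasome, 2 of the 27 constitutive and 2 of the 14 associated promoters. The gamma-activated letters were in 1 promoter of each class. These matches are descriptions of letters in the windows and not of bound sites.

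Total counts ran from 5152838 to 42231258 per mouse (median 19960409), and 50 of the 51 members passed the filter on low counts. Psmb11, the catalytic subunit of the thymus, had 0 counts in every mouse. Fewer than 16000 genes were detected in 3 mice, namely replicates 5 and 6 of P9-ELS and replicate 1 of P200-CTR-PBS, and results that rested on them are given with and without them. Replicate 5 of P9-ELS had 1150.5 CPM of Psmb6 (counts relative to the library's total) where the 11 P9-ELS mice with more genes had 151 to 272, and 426 CPM of Psmb8 where they had 146 to 187. Summed microglial markers ran from 36133 to 64528 CPM at P9 and from 64172 to 81504 CPM at P200, none of the 6 lymphocyte markers passed the filter, and only 2 of the 7 neutrophil and monocyte markers did. In such bulk samples, fewer cells of a type and less RNA per cell cannot be told apart.

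**Figure D1:**
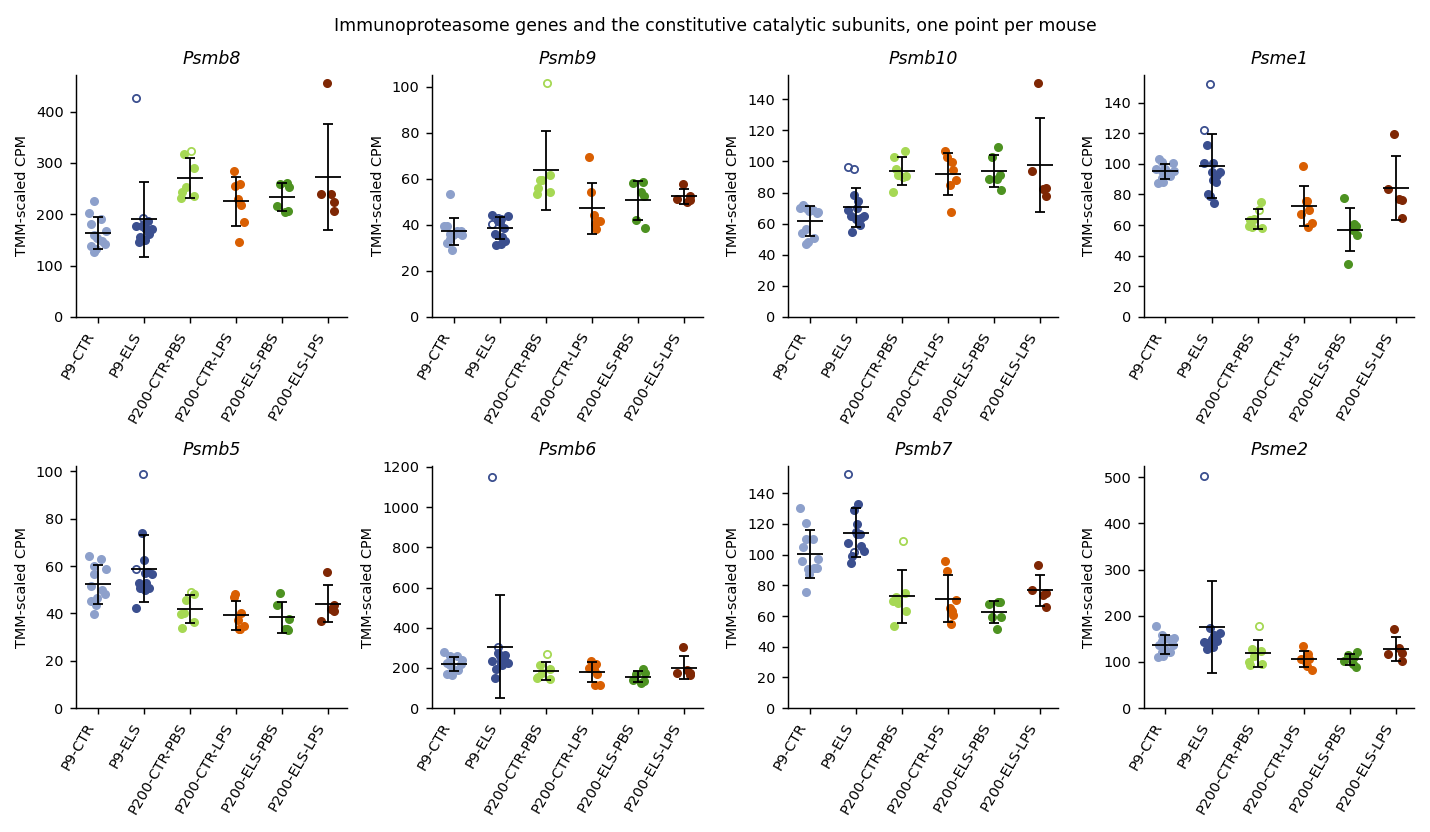
Level of the 5 immunoproteasome genes and 3 constitutive counterparts in each mouse, as TMM-scaled CPM, by group. Points are mice (open points, mice with fewer than 16000 detected genes) and bars are the mean ± SD. The group means of Psmb8, Psmb9 and Psmb10 were higher at P200 than at P9, and those of Psme1 and Psmb7 lower.

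More members, and more of all genes tested, were called between P200 and P9 than in any other comparison. In CTR mice (P200-CTR-PBS against P9-CTR), Psmb8, Psmb9 and Psmb10 were higher at P200, Psme1 was lower, and 13 of the 31 constitutive subunits were lower with none higher. Levels are CPM scaled by TMM, and differences are log2 fold changes with their SE from edgeR's quasi-likelihood test, called at a Benjamini-Hochberg adjusted p under 0.05 over 16696 genes. In all, 24 of the 50 tested members were called, 6 higher and 18 lower, beside 44.1% of all genes tested (17.4% higher and 26.6% lower).

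Psmb8, the substitute for the chymotrypsin-like site, had 127 to 227 CPM in P9-CTR (median 156) and 232 to 324 CPM in P200-CTR-PBS (median 253). Every adult mouse lay above every pup, and Psmb8 rose by 0.73 ± 0.15 (adjusted p = 0.00014, edgeR). Psmb9, the substitute for the caspase-like site, had 29.1 to 53.5 CPM at P9 (median 36.1) and 53.31 to 102 CPM at P200 (median 59.3), and rose by 0.78 ± 0.12 (adjusted p = 7.7e-07, edgeR). The ranges of Psmb9 touched, with the lowest adult just under the highest pup. Psmb10, the substitute for the trypsin-like site, had 46.8 to 71.8 CPM at P9 (median 67.0) and 80.5 to 107 CPM at P200 (median 91.1), without overlap, and rose by 0.61 ± 0.12 (adjusted p = 3.6e-05, edgeR). Groups without overlap made up 6.56% of all genes in the higher direction and 10.5% in the lower.

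The PA28 genes were not higher at P200. Psme1 had 87.3 to 103 CPM in P9-CTR (median 95.4) and 58.4 to 75.1 CPM in P200-CTR-PBS (median 63.3). The groups did not overlap, and Psme1 fell by 0.57 on the log2 scale (SE 0.13, adjusted p = 0.0002, edgeR). Psme2 had 111 to 178 CPM (median 137) and 94.0 to 177 CPM (median 113), and did not pass the test (−0.21 ± 0.18, adjusted p = 0.35, edgeR), while without the 3 mice with few genes it did (−0.33, adjusted p = 0.0060). Psme2b, a near-identical copy of Psme2, fell by 0.84 on the log2 scale (SE 0.20, adjusted p = 0.00065, edgeR). The authors counted unique reads only, so reads that match both copies would be left out, and the value of both is uncertain. Of the opposite-strand partners, Gm20496 differed by 0.70 with age and so in the direction of Psmb8, Emc9 by 1.09 and so against Psme1, and Tap1 by −0.66 and so against Psmb9. Rnf31, the partner of Psme2, stood at 0.46 ± 0.47, and Nek6, the partner of Psmb7, at −0.07 ± 0.10, and neither passed the test (adjusted p = 0.46 and 0.63, edgeR).

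Among the constitutive subunits of CTR mice, 5 of 7 beta-ring, 1 of 7 alpha-ring, 2 of 6 ATPase and 5 of 11 non-ATPase genes were lower at P200. The median over the 31 was −0.20, beside −0.09 over all genes tested. Psmb7, the constitutive trypsin-like subunit, had 75.4 to 130.3 CPM at P9 and 53.32 to 109 CPM at P200 (medians 96.5 and 69.6), and fell by 0.46 (SE 0.12, adjusted p = 0.0015, edgeR). Psmb5, the chymotrypsin-like subunit, fell by 0.32 (SE 0.13, adjusted p = 0.042, edgeR), and Psmb6, the caspase-like subunit, did not pass the test (−0.25 ± 0.23, adjusted p = 0.42, edgeR). The lower subunits with the smallest p-values were Psmb4, a non-catalytic beta subunit (−0.69 ± 0.14), and the large scaffold subunits Psmd2 (−0.46 ± 0.12) and Psmd1 (−0.37 ± 0.10). Psmd1 had 163 to 240.1 CPM in pups and 113 to 205 CPM in adults, so its groups overlapped.

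Of the 14 associated genes tested, 3 rose and 4 fell with age in CTR mice, beside 17.4% of all genes higher and 26.6% lower. Those that fell were Psme2b, the nuclear activator Psme4 (−0.94), the assembly chaperone Psmg4 (−0.55) and Psmc3ip (−0.76), whose exons share 395 bases with Mlx on the other strand. Psmd5, a chaperone of ATPase-ring assembly, had 59.3 to 96.0 CPM in P9-CTR (median 83.0) and 106 to 160.1 CPM in P200-CTR-PBS (median 119.8). Its groups did not overlap, and it rose by 0.62 ± 0.12 (adjusted p = 2.7e-05, edgeR). Psmd10, another chaperone of the ATPase ring, rose by 0.59 ± 0.18 (adjusted p = 0.0074, edgeR), and Psmf1, an inhibitor of the core particle, by 0.34 ± 0.13 (adjusted p = 0.034, edgeR).

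In ELS mice (P200-ELS-PBS against P9-ELS), 33 of 50 members were called, 2 higher and 31 lower, beside 42.2% of all genes (25% in the lower direction). All 7 alpha-ring and all 7 beta-ring genes fell, with 4 of 6 ATPases and 5 of 11 non-ATPase subunits. The median over the 31 constitutive subunits was −0.58, beside −0.014 over all genes tested. Without replicate 5 of P9-ELS the constitutive median was −0.48, and the alpha-ring gene Psma6 did not pass (−0.27, adjusted p = 0.13, edgeR). Without the mice with few genes the constitutive median was −0.47, and Psma6 passed (−0.28, adjusted p = 0.041, edgeR). Psmb7 had 94.4 to 153 CPM in P9-ELS (median 113) and 51.5 to 69.4 CPM in P200-ELS-PBS (median 63.5). No adult reached a pup's level of Psmb7, and it fell by 0.87 (SE 0.13, adjusted p = 2.1e-07, edgeR). Psmd1 (−0.65 ± 0.10), Psmb4 (−0.93 ± 0.15), Psma1 of the alpha ring (−0.91 ± 0.16), Psmb2 of the beta ring (−0.79 ± 0.15) and the ATPase Psmc5 (−0.74 ± 0.14) had the smallest p-values of the other members. Psmb5 fell by 0.62 (adjusted p = 0.00024, edgeR) and Psmb6 by 0.96 (adjusted p = 0.0016, edgeR). Without replicate 5 of P9-ELS, the mouse with 1150.5 CPM of Psmb6, Psmb6 fell by 0.59 (adjusted p = 0.0013, edgeR). Of the constitutive subunits, 10 had adults below every pup, beside 7.03% of all genes in that direction.

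Psmb10 and Psmb9 rose in ELS mice too, by 0.41 ± 0.12 (adjusted p = 0.0052) and 0.39 ± 0.13 (adjusted p = 0.011, edgeR). Psmb8 had 146 to 426 CPM in P9-ELS (median 174) and 204 to 262 CPM in P200-ELS-PBS (median 235). The highest of these values was that of replicate 5 of P9-ELS, and the difference of 0.30 ± 0.16 did not pass the test (adjusted p = 0.14, edgeR). Without that mouse it was 0.45 and passed (adjusted p = 0.0028), and without all 3 mice with few genes it was 0.47 (adjusted p = 0.0019). Both PA28 genes fell, Psme1 by 0.79 (SE 0.13, adjusted p = 3.1e-06, edgeR) and Psme2 by 0.72 (SE 0.19, adjusted p = 0.0015, edgeR). Psme2 had 129 to 503 CPM at P9 and 89.6 to 121 CPM at P200, without overlap. The highest of these was again replicate 5 of P9-ELS, and without it Psme2 fell by 0.48 (adjusted p = 0.00058, edgeR).

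**Figure D2:**
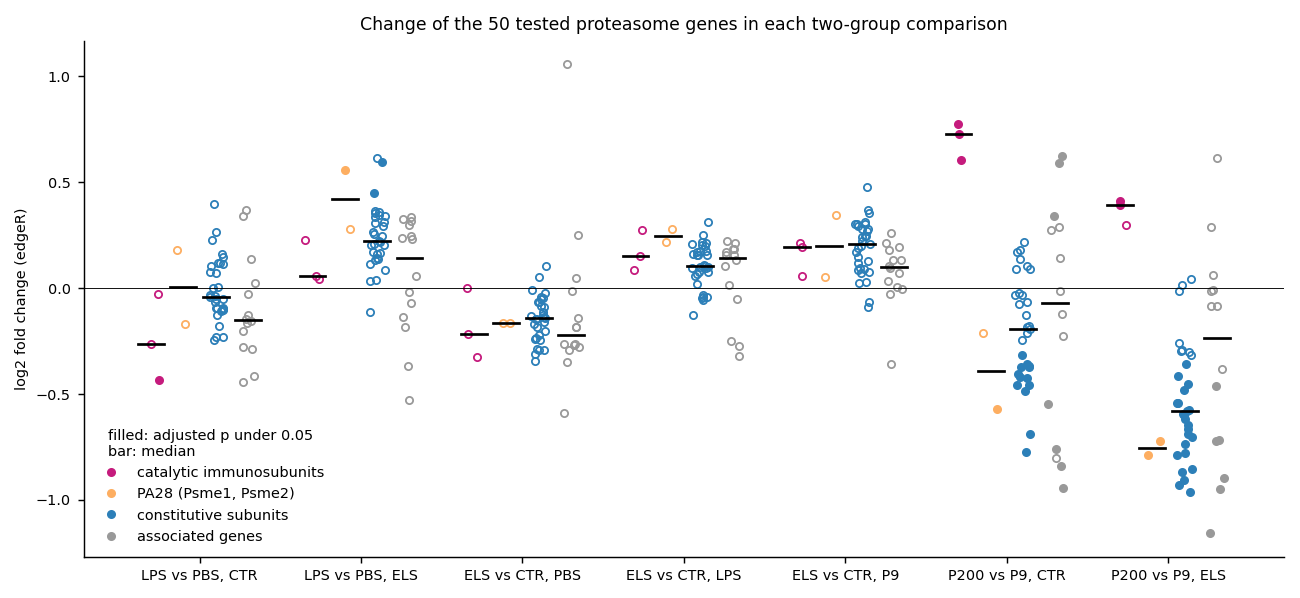
Log2 fold change of each of the 50 tested members in the 7 two-group comparisons, by class. Points are genes, filled where the adjusted p was under 0.05, and the bar is the median of the class. With all mice included, the constitutive medians were −0.20 and −0.58 in the age comparisons of CTR and ELS mice, and between −0.14 and 0.22 in the other comparisons.

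Whether the change with age differed between ELS and CTR mice was tested as an interaction. No member passed the test (0 of 50, edgeR, beside 0.0299% of all genes). At an unadjusted p under 0.05, 12 of the 31 constitutive subunits had a lower age change in ELS mice, beside 5.36% of all genes in that direction (10.3% in either), and 3 of 31 without the mice with few genes. The smallest p-values were those of Psme3, the nuclear PA28 subunit (1.42 ± 0.49, adjusted p = 0.32), and the alpha-ring genes Psma5 (−0.67 ± 0.25, adjusted p = 0.33) and Psma2 (−0.57 ± 0.22, adjusted p = 0.36, edgeR).

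The balance within each exchanging pair was read as the ratio of the counts of a substitute to those of its constitutive counterpart in the same library, which does not depend on scaling between libraries. Per kilobase of transcript, the median ratio of Psmb8 to Psmb5 was 3.04 in P9-CTR and 6.50 in P200-CTR-PBS. Psmb10 stood at 0.531 of Psmb7 in P9-CTR and at 1.18 in P200-CTR-PBS, and Psmb9 at 0.132 of Psmb6 and then at 0.273. Psmb8 was thus above its counterpart in every group's median, and Psmb9 below.

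In CTR mice the mean log2 ratio of Psmb8 over Psmb5 was 1.64 ± 0.15 (SD, n = 12) at P9 and 2.69 ± 0.18 (n = 7) at P200, a 2.07-fold higher ratio. For Psmb9 over Psmb6 the ratio was 2.02-fold higher and for Psmb10 over Psmb7 2.13-fold higher. None of the 3 pairs overlapped between the ages in CTR mice, and each gave p = 3.97e-05 in the two-sided exact permutation test, the smallest that these group sizes allow (adjusted p = 0.000278 over 21 tests). The test took mice as independent. By the mouse names, however, the P9-CTR mice came from 5 nests, the P9-ELS mice from 4 and the mice of each P200 group from 5. In ELS mice the ratios were 1.94-fold (adjusted p = 0.00206), 2.22-fold (adjusted p = 0.000619) and 2.44-fold higher (adjusted p = 0.000387, exact permutation tests), and only the ranges of Psmb10 over Psmb7 did not overlap. The 6 age tests were the only ones of the 21 that were called, and the same number was called without the mice with few genes.

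**Figure D3:**
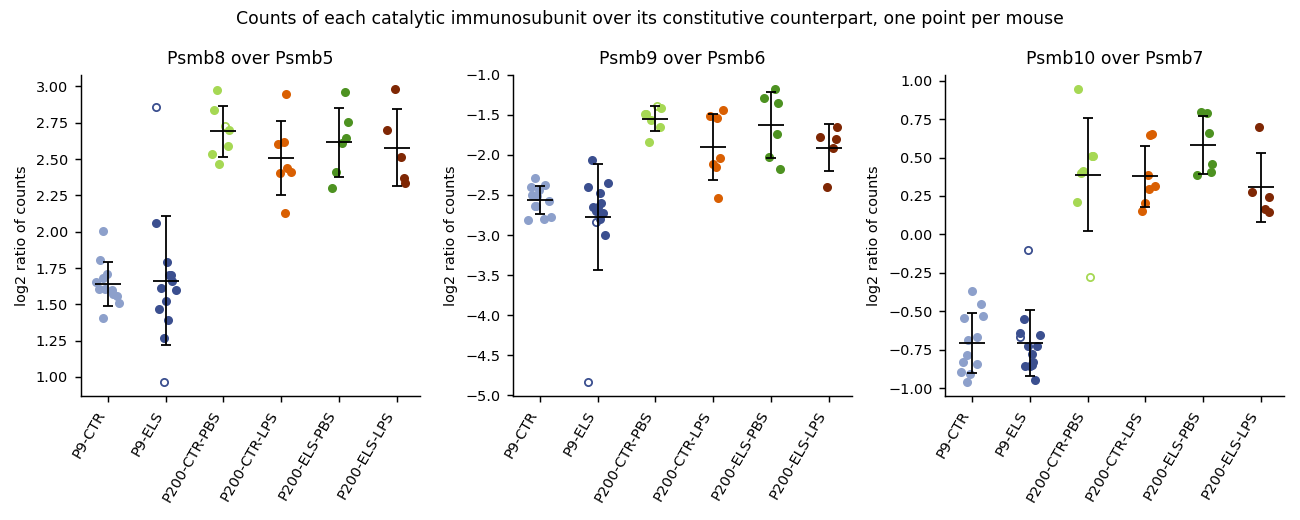
Log2 ratio of the counts of each immunoproteasome catalytic subunit over those of its constitutive counterpart in each mouse, by group; points are mice (open, mice with few detected genes) and bars are the mean ± SD. The P200-CTR-PBS points lie above all P9-CTR points in each panel, with means of 1.64 in P9-CTR and 2.69 in P200-CTR-PBS for Psmb8 over Psmb5.

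Genes outside the symbol rule, from lists of proteasome partners and regulators, gave the setting of the age differences. Of 14 proteasome partners, 4 fell in CTR mice, beside 26.6% of all genes, and 4 in ELS mice, beside 25%, with none higher. They included Uchl5 (−0.93 and −1.21) and Usp14 (−0.44 and −0.69), which trim ubiquitin at the cap, and Sem1 (−0.57 and −1.13), the smallest cap subunit. Pomp, which guides assembly of the core, fell by 0.97 in ELS mice (adjusted p = 0.00018, edgeR). Nfe2l2, a stress-response transcription factor, rose by 1.12 in CTR and 0.81 in ELS mice, and of the 4 genes of proteasome transcription control 2 rose and none fell in each. Of 10 genes of peptide loading and interferon control, 5 rose and 2 fell in each, with Irf9 (0.89 and 0.70) and Tapbp (0.67 and 0.72) higher. The interferon receptor genes Ifngr1 (0.71 and 0.56) and Ifnar2 (0.94 and 0.83) rose as well.

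Markers of other cell types and of cell division also differed with age. The summed level of 5 border macrophage markers ran from 469 to 916 CPM at P9 and from 1.80 to 9.62 CPM at P200, that of 5 markers of dividing cells from 498 to 1867 and from 2.49 to 18.06 CPM, and that of 6 neuronal markers from 50.5 to 185 and from 2.49 to 25.3 CPM. Whether these transcripts came from other cells or from the microglia themselves was not tested. Their part in the age differences of the proteasome genes was not tested either.

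Few proteasome genes passed the test 3 h after LPS, while genes that control the immunoproteasome rose strongly. In CTR mice, 1 of 50 members was called, beside 14.9% of all genes (8.73% higher and 6.2% lower), and in ELS mice 3 were, beside 12.3% (7.4% higher and 4.94% lower). In each comparison 6 of the 10 peptide loading and interferon control genes rose. The LPS and age comparisons share the PBS mice, and so are not independent of each other.

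The member called in CTR mice was Psmb9, which was lower and not higher. It had 53.31 to 102 CPM with PBS (median 59.3) and 38.2 to 69.7 CPM with LPS (median 41.8), and it fell by 0.43 (SE 0.14, adjusted p = 0.027, edgeR). The ranges overlapped, and the top PBS value belonged to replicate 1, in which few genes were detected. Without that mouse the difference was −0.28 and did not pass (adjusted p = 0.16). The call was also lost when replicate 2, 4, 5 or 7 of P200-CTR-LPS was left out. Tap1, which overlaps Psmb9 on the other strand, rose by 0.94 ± 0.27 (adjusted p = 0.012, edgeR).

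The other immunoproteasome genes of CTR mice did not pass. Psmb8 had 232 to 324 CPM with PBS (median 253) and 147 to 285 CPM with LPS (median 229), a difference of −0.27 ± 0.18 (adjusted p = 0.37, edgeR). The value was −0.03 ± 0.13 for Psmb10, 0.18 ± 0.14 for Psme1 and −0.17 ± 0.20 for Psme2. No constitutive subunit was called (0 of 31, edgeR; 2 at an unadjusted p under 0.05, both higher, beside 26.5% of all genes). Their median was −0.04, and 12 of the 31 were above 0, beside 50.3% of all genes. Psmb5 (−0.10 ± 0.14), Psmb6 (−0.05 ± 0.26) and Psmb7 (−0.03 ± 0.13) did not pass. The smallest p-values after Psmb9 were those of Psmb4 (0.40 ± 0.15, adjusted p = 0.074), the ATPase Psmc6 (0.27 ± 0.12, adjusted p = 0.13) and the assembly chaperone Psmg3 (−0.42 ± 0.19, adjusted p = 0.14, edgeR).

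The same libraries carried a clear response in the regulators. Irf1, a transcription factor of the interferon response that is known to act on immunoproteasome promoters, had 24.5 to 66.3 CPM with PBS and 171 to 456 CPM with LPS, without overlap, and rose by 2.51 ± 0.24 (adjusted p = 4.6e-12, edgeR). Nlrc5, the transactivator of MHC class I genes, rose by 3.01 ± 0.54 (adjusted p = 3.6e-05, edgeR), and Stat2 by 2.16 ± 0.43 and Irf9 by 0.86 ± 0.16. Tnf rose by 6.50 ± 0.60 (adjusted p = 2.4e-12, edgeR), with Nfe2l2 (0.63 ± 0.14) and Nfe2l1 (1.33 ± 0.41), the factors that drive constitutive proteasome genes, higher as well.

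**Figure D4:**
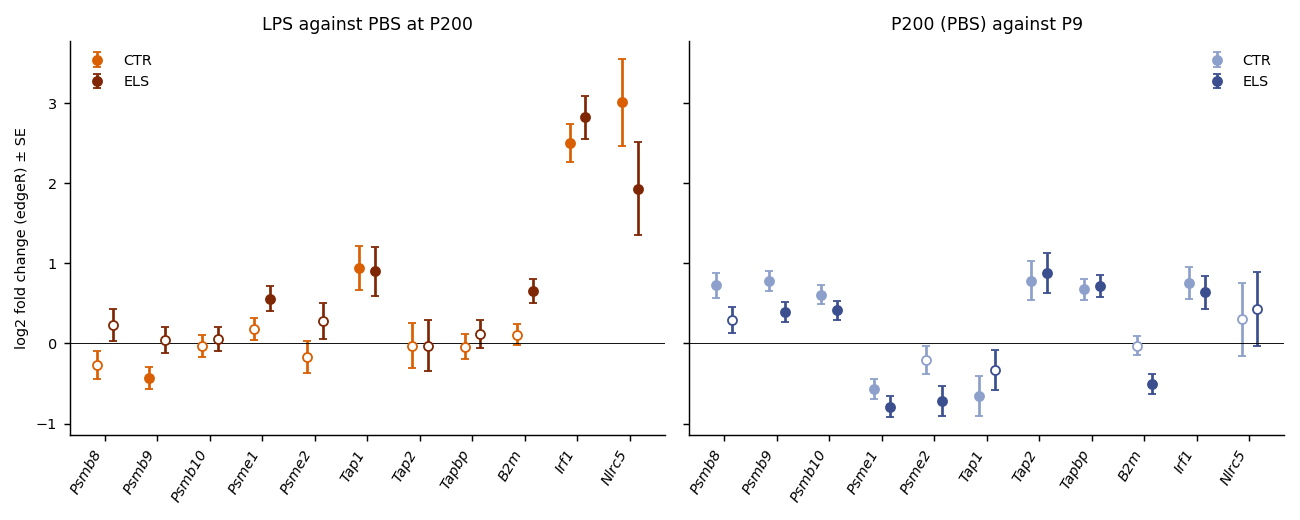
Log2 fold change ± SE of 11 genes in the LPS comparisons and the age comparisons of CTR and ELS mice; filled points had an adjusted p under 0.05. With LPS, Irf1 rose by 2.51 in CTR and 2.82 in ELS mice, while Psmb8 stood at −0.27 and 0.23.

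In ELS mice, Psme1, Psmd7 and Psmb4 rose with LPS. Psme1 had 34.8 to 77.6 CPM with PBS (median 58.07) and 64.4, 77.2, 119, 83.9 and 76.2 CPM in replicates 1 to 5 with LPS. The groups overlapped, replicate 3 was highest, and Psme1 rose by 0.56 ± 0.16 (adjusted p = 0.010, edgeR). Psmb4 had 55.6 to 67.1 CPM with PBS and 80.5, 85.4, 141, 77.8 and 78.0 CPM with LPS, and rose by 0.59 ± 0.17 (adjusted p = 0.015, edgeR). Psmd7, a cap subunit that pairs with the deubiquitinase Psmd14, had 97.8 to 120.1 CPM with PBS and 129 to 177 CPM with LPS, and rose by 0.45 ± 0.13 (adjusted p = 0.015, edgeR). The groups did not overlap for Psmb4 and Psmd7, nor for the alpha-ring gene Psma6 (0.61 ± 0.23, adjusted p = 0.076, edgeR), beside 5.65% of all genes in that direction.

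All 3 calls depended on replicate 3 of P200-ELS-LPS: without it none of the members passed, and Psme1 stood at 0.40 (adjusted p = 0.088), Psmb4 at 0.39 (adjusted p = 0.14) and Psmd7 at 0.38 (adjusted p = 0.061, edgeR). The other 4 LPS mice still lay above every PBS mouse for Psmb4 and Psmd7. This mouse had 455 CPM of Psmb8 where the other LPS mice had 224, 239, 239 and 207, and 151 CPM of Psmb10 where they had 83.0, 82.4, 93.6 and 77.7. Without the mice with few genes, none of which is in these groups, 8 members were called, 7 of them constitutive. None of the 3 catalytic immunosubunits passed in ELS mice, with 0.23 ± 0.20 for Psmb8, 0.04 ± 0.16 for Psmb9 and 0.06 ± 0.15 for Psmb10 (adjusted p = 0.54, 0.91 and 0.88, edgeR). Psme2 stood at 0.28 ± 0.22. Of the constitutive subunits 30 of 31 were above 0, with a median of 0.22, beside 46.8% of all genes above 0. Without replicate 3 of P200-ELS-LPS the median was 0.12, with 27 of 31 above 0. Psmb5 (0.21 ± 0.16), Psmb6 (0.36 ± 0.29) and Psmb7 (0.29 ± 0.15) did not pass.

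In ELS mice Irf1 rose by 2.82 ± 0.27, Irf9 by 1.04 ± 0.18 and Nfe2l2 by 0.80 ± 0.16, while Nfe2l1 did not pass (0.42 ± 0.46, adjusted p = 0.63, edgeR). B2m, the light chain of MHC class I, rose by 0.65 ± 0.15 (adjusted p = 0.001, edgeR). No exchange ratio was called with LPS in either condition after adjustment over the 21 exact permutation tests. The nearest were Psmb9 over Psmb6 in CTR mice, at 0.78 of the PBS ratio (p = 0.0466, adjusted p = 0.14), and Psmb10 over Psmb7 in ELS mice, at 0.826 of it (p = 0.0606, adjusted p = 0.159). The latter was called without replicate 3 of P200-ELS-LPS (log2 difference −0.37, adjusted p = 0.029).

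The difference in the LPS response between ELS and CTR mice passed the test for no member (0 of 50, beside 0% of all genes, edgeR). At an unadjusted p under 0.05 stood 5.87% of all genes and 3 members, Psmb9 (0.48 ± 0.21, adjusted p = 0.76), Psmf1 (0.50 ± 0.23) and Psmd9 (0.48 ± 0.23). The median over the constitutive subunits was 0.27, with 29 of 31 above 0, beside 45.3% of all genes. Without replicate 3 of P200-ELS-LPS it was 0.15, with 27 of 31 above 0.

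No member passed the test for ELS itself at either age. In PBS mice 0 of 50 were called (edgeR), beside 0.168% of all genes, and 4 had an unadjusted p under 0.05, beside 9.71% of all genes. The smallest p-value was that of Psme3, with 2.54 to 22.4 CPM in P200-CTR-PBS (median 9.53) and 12.5 to 34.1 CPM in P200-ELS-PBS (median 23.3). These groups overlapped, and the difference of 1.06 ± 0.40 did not pass (adjusted p = 0.28, edgeR). Psmb9 (−0.33 ± 0.15, adjusted p = 0.42), Psmd1 (−0.25 ± 0.11, adjusted p = 0.43) and Psmd9 (−0.35 ± 0.16, adjusted p = 0.44, edgeR) followed. Of the constitutive subunits, 29 of 31 were below 0, with a median of −0.14, beside 48.8% of all genes, and 26 of 31 were below 0 with a median of −0.09 without the mice with few genes.

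After LPS, no member passed between ELS and CTR mice (0 of 50, edgeR, beside 0% of all genes; 0 members and 4.78% of all genes at an unadjusted p under 0.05). Psmb8 stood at 0.28 ± 0.19, Psmb9 at 0.15 ± 0.15 and Psme1 at 0.22 ± 0.15. At P9 again none was called (0 of 50, edgeR, beside 0% of all genes), while 13 members and 5.47% of all genes (3.32% in the higher direction) had an unadjusted p under 0.05. Those 13 members were all higher in ELS pups, 12 of them constitutive, and the smallest adjusted p was 0.90, as for Psma5 (0.36 ± 0.14) and Psmb2 (0.27 ± 0.12). The median over the constitutive subunits was 0.21 (29 of 31 above 0, beside 50.5% of all genes), and without the mice with few genes it was 0.07 (24 of 31 above 0, 1 with an unadjusted p under 0.05).

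**Figure D5:**
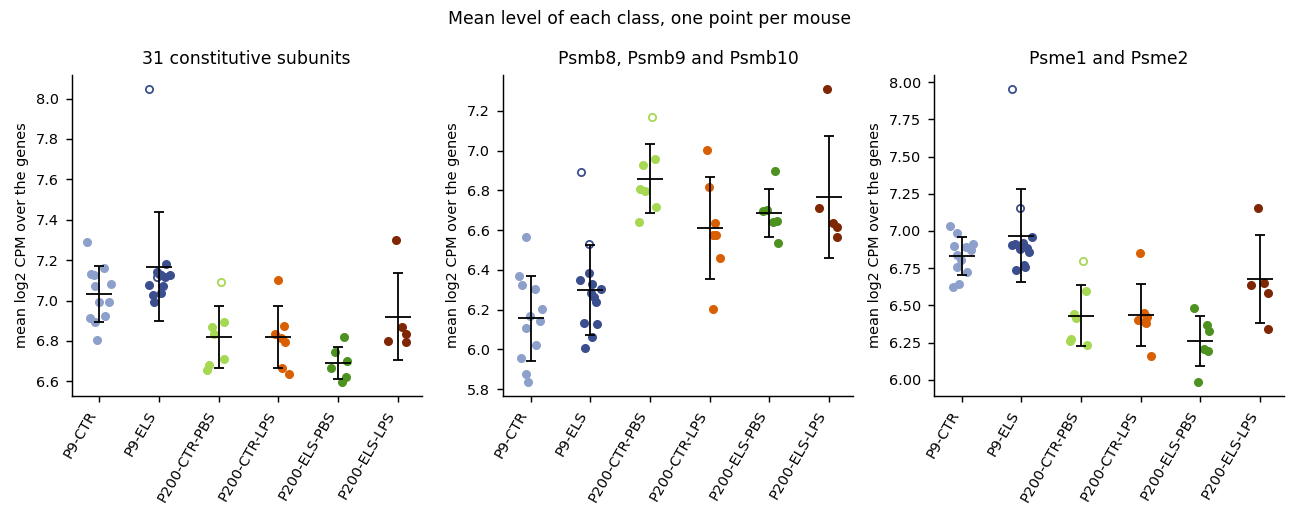
Mean log2 CPM of the 31 constitutive subunits, the 3 catalytic immunosubunits and the 2 PA28 genes in each mouse, by group; points are mice (open, mice with few detected genes), and bars are the mean ± SD. The group means of the catalytic immunosubunits are higher at P200 than at P9, and those of the other classes lower.

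Within groups, the members varied together from mouse to mouse. After each gene was centred on its group mean, the mean Pearson r over the 465 pairs of constitutive subunits was 0.423 (397 pairs above 0) across the 50 mice, beside 0.0390 over all genes tested. It was 0.483 over the 10 immunoproteasome pairs and 0.441 between the immunoproteasome and the constitutive genes. Without the mice with few genes the values were 0.383, 0.479 and 0.425, beside 0.00284 over all genes. Among the 10 immunoproteasome pairs r was highest for Psmb8 with Psme2 (0.857) and for Psmb8 with Psmb10 (0.767). Between Psmb8 and Tap2, a peptide transporter gene, r was −0.703, and −0.509 without the mice with few genes. These are descriptions over libraries that share depth and RNA quality among their genes, and carry no test.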

How the data were processed

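RNA-seq of sorted hippocampal microglia from 50 mice was analysed from the deposited files, 1 per mouse. These hold raw counts per gene (Ensembl ID and symbol), which the authors made by trimming reads (cutadapt 2.10), aligning them to GRCm39 with STAR and counting with HTSeq 0.11.0. The annotation release and strand setting are not given in the sources used here. Groups came from the sample labels. Counts were tested with edgeR 4.0.16 (quasi-likelihood, TMM scaling, R 4.3.3) in 1 model of the 6 group means, on the 16696 genes that reached 1 CPM in over 2 mice, with Benjamini-Hochberg adjustment over all of them and calls at an adjusted p under 0.05. Positions, exons and transcript lengths are from GENCODE on GRCm39. RefSeq promoters, given with GRCm38.p6, were placed on GRCm39 by exact, single matches. Exchange ratios were tested by two-sided exact permutation over mice (100000 resamples where both groups had 10 or more). The edgeR and permutation tests took mice as independent, although in every group but P200-ELS-LPS some mice shared a nest.

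The members and lists were chosen with earlier results of these data known. In every comparison the text names the immunoproteasome genes and Psmb5, Psmb6 and Psmb7, then of the other members the 5 called with the smallest p (the 3 smallest where none is called), called members that moved against their class, and up to 4 called genes per companion list. Psma6, Psme4, Psmg4, Psmc3ip, Tap1, Tap2, the other opposite-strand partners and the values of single mice were added after their values were seen. The fit was tested on simulated counts. Alternatives were DESeq2 1.42.0, limma 3.58.1 (voom), other scaling, no filter, only the groups compared, nest terms and leaving out mice. No 2 libraries agreed within sampling noise. One gene of a companion list is not reported here by name.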

Additional observations from a re-analysis of the deposited data

Results flagged for a closer look

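Of 44 sets of values (a gene or ratio in 1 group of 5 to 7 mice), 5 held a mouse far from the others of its group by Dixon's test at the 95% level, and chance alone flags about 1 in 20 such sets. Of these 5 values, 4 belong to replicate 3 of P200-ELS-LPS. Its Psmb8 was 8.83 log2 CPM where the others lay between 7.70 and 7.90 (gap over range 0.818), its Psmb10 7.24 where they lay between 6.28 and 6.55 (0.720), and its Psmb6 8.26 where they lay between 7.37 and 7.55 (0.792). Its log2 ratio of Psmb10 over Psmb7 was 0.70 where the others lay between 0.15 and 0.28 (0.766). The limit for 5 mice was 0.71. In P200-CTR-PBS, Psmb9 of replicate 1 was 6.67 log2 CPM where the others lay between 5.74 and 5.95 (0.774, limit 0.568 for 7 mice).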

How the results depend on the processing

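The number of members called with LPS in CTR mice was 1, and became 2 with DESeq2, 0 with no filter on low counts and 0 with only the groups compared. Psmb9 was then at −0.43 (adjusted p = 0.080) and −0.44 (adjusted p = 0.10), and the cause was not tested. Leaving out 1 mouse gave 0 to 2, with 0 reached without replicate 1 of P200-CTR-PBS or replicate 2, 5 or 7 of P200-CTR-LPS. With LPS in ELS mice the number was 3, became 8 without the mice with few detected genes, and ran from 0 to 3 when 1 mouse was left out. Leaving out 1 mouse gave 18 to 25 members for age in CTR, 29 to 36 for age in ELS and 6 to 7 exchange ratios. The mice left out singly were the 25 P200 mice and, for the members, also the 2 P9-ELS mice with few genes, and no other P9 mouse. The counts for ELS and both interactions stayed at 0 under every alternative. For a part of the single genes and ratios, 381 of 389 values kept their direction and side of the threshold when 1 mouse was left out. Under the other alternatives 198 of 205 did, and none reversed. These values do not cover every gene named in the text, and not all of the lost calls given above are among them. Nests were read from the mouse names and were not in the main model. In deviations from the group means, the PBS and LPS mice of each of the 10 P200 nests correlated at −0.041 to 0.057. With the LPS mice of other nests of the same condition, the PBS mice correlated at −0.0196 to 0.0084. These values cannot show that mice of a nest were independent, and P9 nests were not checked in this way. With the nest as a block, 0 members were called with LPS in CTR mice, and with the nest as a random effect in voom 2 were. The lowest total count, 5152838, was in replicate 6 of P9-ELS, a mouse with few detected genes, and values of the members with the fewest counts, such as Psma8 and Psme2b, rest most on depth.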

Other observations

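Psma8, the alpha subunit of testis, had group medians of 4.40 to 8.09 CPM. With age it fell by 0.89 in ELS mice and did not pass in CTR mice (−0.12), and the difference between them was not called. Psme4, the large activator found mainly in the nucleus, had a median of 23.1 CPM in P9-CTR and 12.9 CPM in P200-CTR-PBS, and fell by 0.94 on the log2 scale. Psmc3ip, a partner in meiotic recombination that shares only the symbol, fell by 0.76 in CTR and 0.71 in ELS mice. In the 395 exon bases that it shares with Mlx on the other strand, reads of the genes could not be told apart. Over all mice Mlx had 40733 counts and Psmc3ip 11936. Psma8, Psme4 and Psmc3ip were chosen after their values were seen.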
